A study of Drosophila melanogaster with 18 samples.

Results

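The Hox gene Scr, the wing transcription factors bi and dve, and the wing matrix gene tnc are genes that lay out segments or shape the wing. These 4 genes were chosen by symbol in the annotation of the array, which gave 1 probe set to each, 4 of 16322 in all. Only 2392 probe sets carried a single gene symbol there, so most other patterning genes could not be followed. bi, dve and tnc belong to the wing genes and Scr to the Hox genes that the study itself showed from these same arrays, so their direction is no independent evidence.

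The study asked what happens when DNMT3L, a mammalian partner of DNA methyltransferases, is made in Drosophila melanogaster over successive generations. Total RNA of pooled whole larvae of the third instar was hybridised to 18 Affymetrix Drosophila Gene 1.1 ST arrays, 2 for each of 9 groups. The larvae of Tub-3L G1, of G2, of G4 and of G5 carried a UAS transgene for FLAG-tagged DNMT3L put into the w1118 strain, switched on by the ubiquitous Tubulin-GAL4 driver, and were followed as homozygous lines of 1 insertion. Tub-3L G5P larvae were G5 larvae picked for melanotic tumors. UAS-3L* G20* larvae came from flies whose driver had been crossed out, but their titles give Tub-3L G20* while their descriptions give G5 larvae without the driver, so genotype and generation are uncertain. The w1118 larvae were of the strain that received the transgene. UAS-3L G5 and UAS-3L G1 larvae had the transgene without a driver, and UAS-3L G1 served as the control of every comparison unless another is named. The study's methods describe the larvae as of about the same third-instar stage, but no source used here gives their age within it. Although labelled as larvae, the arrays of Tub-3L G4, G5 and G5P carried markers of ovary and germline and of adult accessory gland, flight muscle and eye. Their values are given with the tissue markers.

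Hox genes give each segment of the fly its identity along the body axis. Scr, Sex combs reduced, acts in the labial and first thoracic segments, where it sets up the embryonic salivary glands and later the sex combs of the male foreleg. In the wing disc, the Dpp morphogen spreads from a central stripe and switches on targets that set growth and the position of veins. bi, also called optomotor-blind, is a T-box transcription factor and such a target, and it is needed in the optic lobe as well. dve, defective proventriculus, is a homeodomain transcription factor of the proventriculus, the midgut and the wing. tnc encodes Tenectin, a mucin-like protein of the extracellular matrix that binds integrins and serves in wing and hindgut.

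The 4 genes stayed near the UAS-3L G1 control in Tub-3L G1 and G2 and were at their lowest in Tub-3L G5P. Against UAS-3L G1, 0 of the 4 were called in Tub-3L G1 and G2, 1 was called lower in G4, and 4 were called lower in both G5 and G5P. A probe set is called when limma's Benjamini-Hochberg adjusted p, taken over all 16322 probe sets, is under 0.05 and the signal differs at least 2-fold. By that rule 1.72% of all probe sets were called lower in G1 and 2.24% in G2. The share was 4.85% for G4, 10.2% for G5 and 13.7% for G5P. The median log2 difference of the 4 genes was −0.13, −0.14, −0.94, −1.53 and −2.18 over these groups in the same order, while that of all probe sets lay between −0.03 and 0.04. At an unadjusted p under 0.05, 0 of the 4 passed in G1 and only tnc in G2, while 5389 and 6618 of the 16322 probe sets did. The methods' t-test called 0 of the 4 in both. By that name is meant a pairwise form of the one-way analysis of variance that the study's methods give, run here without adjustment at the same fold, since those methods do not say whether p-values were adjusted. When each array was centred on its median, which moved all differences by −0.14 in G4 and −0.19 in G5, limma called 1097 of its 2091 probe sets lower in G4, against 791 of 2021 without centring, and 2182 of 3799 in G5, against 1666 of 3790. In G5 and G5P the 4 genes, and in G4 Scr, bi and dve, lay in the lower flank of the array, in a setting where many other probe sets fell too. tnc in G4 did not, with 35.1% of all probe sets at a lower difference. Both arrays of a group lay below both UAS-3L G1 arrays for 37.1% of all probe sets in G4, 37.2% in G5 and 38.3% in G5P, so that alone is common here. RNA of whole larvae cannot tell fewer cells of a type from less RNA per cell.

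**Figure D1:**
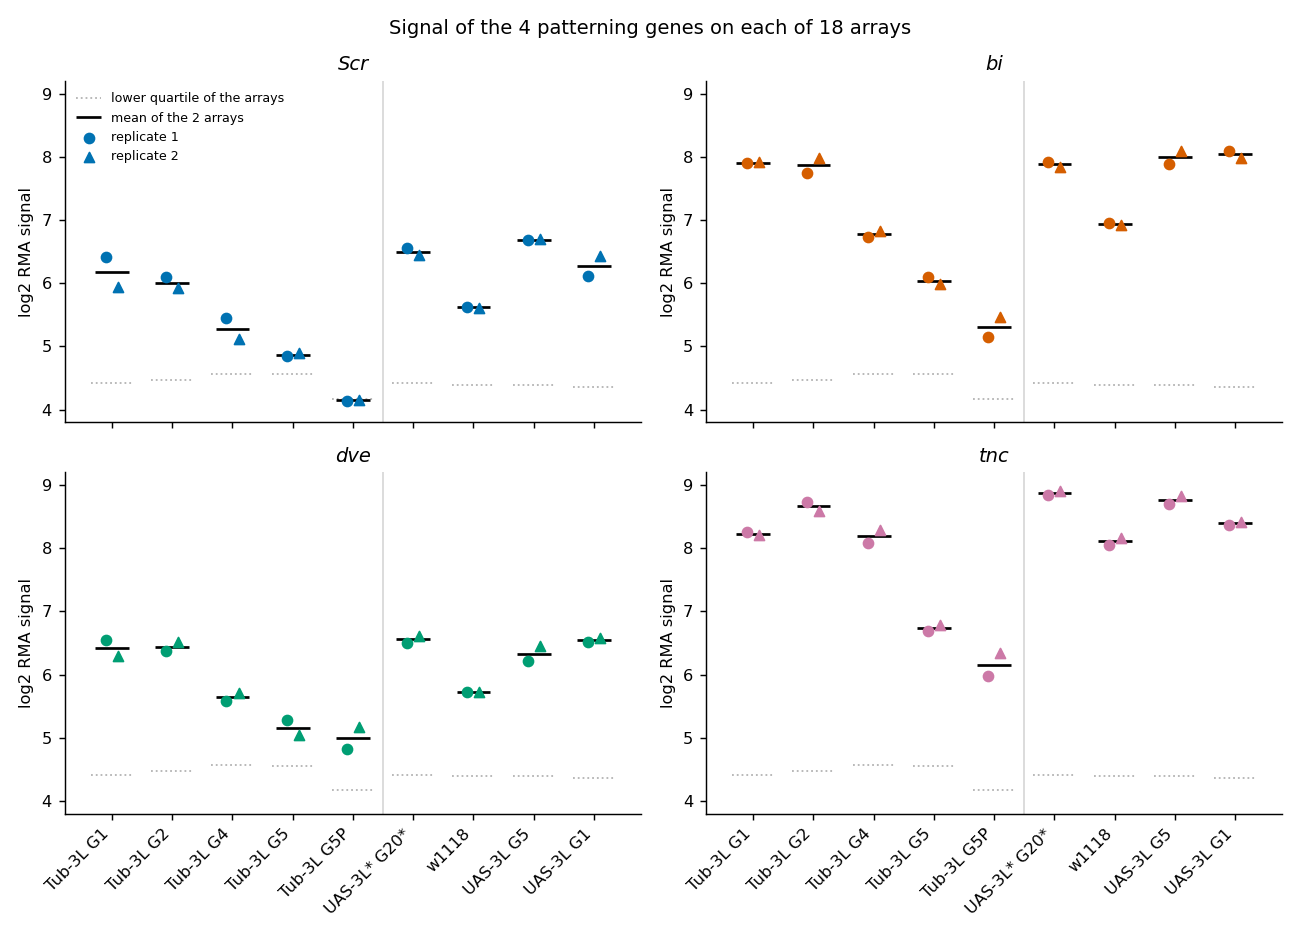
Log2 RMA signal (vertical axis) of Scr, bi, dve and tnc on each of 18 arrays, by group (horizontal axis). Circles and triangles are replicates 1 and 2, black bars their means, and dotted bars the lower quartile of all probe sets on the arrays of the group. For all 4 genes both Tub-3L G5P arrays lie below both arrays of every group without the driver, and Scr lies at the dotted bar there.

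Scr, the only Hox gene named on the array out of 8, had log2 signals of 6.42 and 5.93 in Tub-3L G1 and 6.10 and 5.92 in Tub-3L G2. They were 5.45 and 5.11 in Tub-3L G4, 4.85 and 4.89 in Tub-3L G5 and 4.13 and 4.16 in Tub-3L G5P, against 6.11 and 6.43 in UAS-3L G1. Only the arrays of Tub-3L G1 overlapped those of the control. By limma, Scr was 1.99-fold lower in G4 (adjusted p = 3.19e-04), just short of the fold asked for, and it was called at 2.65-fold lower in G5 (log2 difference −1.40, SE 0.159, adjusted p = 9.85e-06) and 4.37-fold lower in G5P (−2.13, adjusted p = 1.62e-07). In G5P its signal stood at the lower quartile of its arrays, 4.16 and 4.19, so it was dim there. The log2 difference was −0.10 in G1 (adjusted p = 0.714) and −0.27 in G2 (adjusted p = 0.234), and neither passed.

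The place of Scr in G4 hinged on few arrays. Leaving out Tub-3L G4 replicate 1 gave −1.16 and leaving out UAS-3L G1 replicate 1 gave −1.15, and either made Scr a called gene in G4. The replicate spread of Scr was widest in Tub-3L G1, with an SD of 0.346, and smallest in w1118, with an SD of 0.00754 (n = 2 each).

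bi had the largest log2 difference of the 4 in each of Tub-3L G4, G5 and G5P. Its signals were 7.90 and 7.92 in Tub-3L G1 and 7.74 and 7.99 in Tub-3L G2. They were 6.73 and 6.83 in Tub-3L G4, 6.09 and 5.98 in Tub-3L G5 and 5.15 and 5.47 in Tub-3L G5P, against 8.09 and 7.99 in UAS-3L G1. The arrays of the 3 late groups were all below both control arrays, while in G2 they overlapped them. By limma, bi was called at 2.40-fold lower in G4 (log2 difference −1.26, SE 0.120, adjusted p = 4.81e-06), 4.01-fold lower in G5 (adjusted p = 3.45e-08) and 6.62-fold lower in G5P (−2.73, adjusted p = 1.20e-09). Only 3.18% of all probe sets had a lower difference than bi in G5P. In G1 and G2 the log2 differences of −0.13 (adjusted p = 0.477) and −0.18 (adjusted p = 0.303) did not pass.

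dve, which acts in the gut as well as the wing, had signals of 6.55 and 6.29 in Tub-3L G1 and 6.37 and 6.52 in Tub-3L G2. They were 5.58 and 5.71 in Tub-3L G4, 5.29 and 5.04 in Tub-3L G5 and 4.81 and 5.18 in Tub-3L G5P, against 6.51 and 6.57 in UAS-3L G1. In G4, G5 and G5P its arrays were all below the control arrays. By limma, it was 1.86-fold lower in G4 (log2 difference −0.90, SE 0.140, adjusted p = 2.65e-04), which passed the p, as 21% of all probe sets did in this direction, but not the fold, and it was called at 2.61-fold lower in G5 (−1.38, adjusted p = 3.66e-06) and 2.93-fold lower in G5P (−1.55, adjusted p = 9.22e-07). In G1 and G2 the log2 differences were −0.12 (adjusted p = 0.590) and −0.10 (adjusted p = 0.633).

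Of the 4 genes, tnc lay nearest to UAS-3L G1 in Tub-3L G4. Its signals were 8.26 and 8.20 in Tub-3L G1 and 8.74 and 8.59 in Tub-3L G2. They were 8.09 and 8.29 in Tub-3L G4, 6.69 and 6.78 in Tub-3L G5 and 5.97 and 6.34 in Tub-3L G5P, against 8.37 and 8.42 in UAS-3L G1. The arrays of G2 lay above both control arrays, those of G1 and G4 just below them, and those of G5 and G5P far below. By limma, the log2 difference in G4 was −0.21 (SE 0.121, adjusted p = 0.192), with a 95% interval of −0.47 to 0.06, whereas tnc was called at 3.16-fold lower in G5 (−1.66, adjusted p = 1.87e-07) and 4.72-fold lower in G5P (−2.24, adjusted p = 7.74e-09). In G1 and G2 the log2 differences of −0.17 (adjusted p = 0.369) and 0.27 (adjusted p = 0.118) did not pass.

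**Figure D2:**
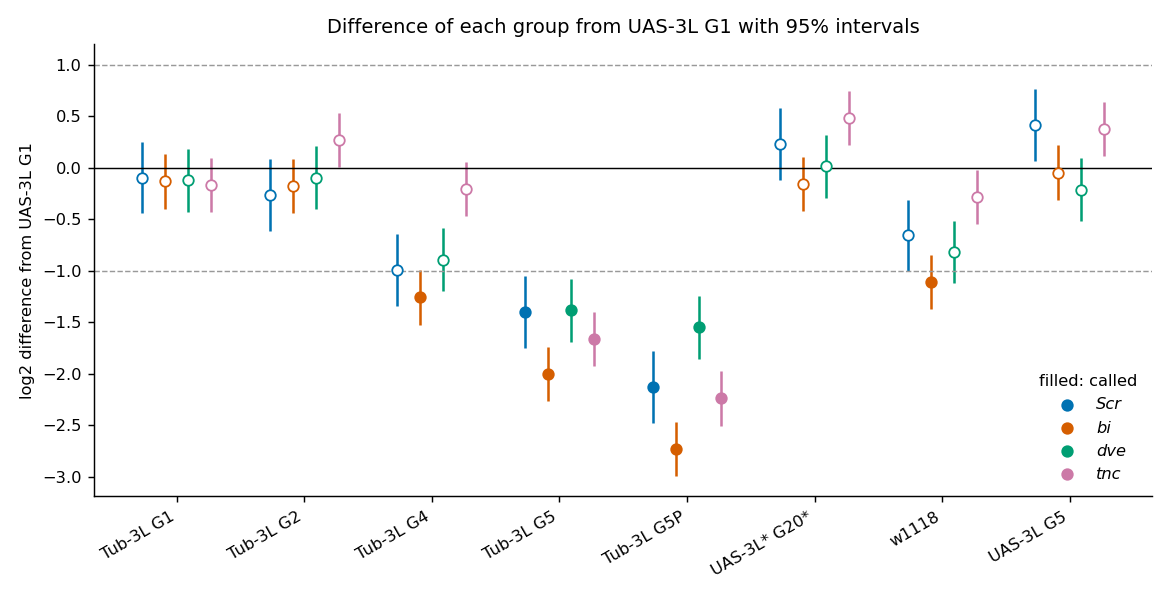
Log2 difference of each group from UAS-3L G1 (vertical axis) for Scr, bi, dve and tnc, with 95% intervals from the limma fit, by group (horizontal axis). Filled points are called and dashed lines mark 2-fold. All 4 genes are called in Tub-3L G5 and G5P, and bi also in Tub-3L G4 and w1118.

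When the generations were set against each other, the fall came in separate steps. In Tub-3L G2 against G1 tnc was higher by 0.43 (limma adjusted p = 0.0159), which passed the p, as 16% of all probe sets did upwards, but not the fold, and the other 3 genes had differences between −0.17 and 0.02 that did not pass. In G4 against G2 all 4 genes were lower at an adjusted p under 0.05, as 18.4% of all probe sets were. The log2 differences were −0.73 for Scr, −1.08 for bi, −0.80 for dve and −0.47 for tnc. Only bi was called there, at 2.12-fold lower, where 3.57% of all probe sets were called lower. Without Tub-3L G2 replicate 2 the log2 difference of bi in this step was −0.96, under the fold asked for, and the count of called genes was 0.

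In G5 against G4 tnc carried the largest step of the 4. It was 2.74-fold lower (log2 difference −1.46, limma adjusted p = 2.81e-06) and the only one of the 4 called, where 4.33% of all probe sets were called lower. bi fell by 0.74 (adjusted p = 8.43e-04) and dve by 0.49 (adjusted p = 0.0253) without reaching 2-fold, and the difference of −0.41 for Scr did not pass (adjusted p = 0.0834). By the p alone 10.7% of all probe sets were lower in this step. In G5P against G5, which compares larvae with tumors with G5 larvae, Scr fell by 0.72 (adjusted p = 0.00228), bi by 0.73 (adjusted p = 3.51e-04) and tnc by 0.58 (adjusted p = 0.00164). Scr was dim in both, at percentiles 28.3 and 28.9 of its arrays in G5 and 24.7 and 24.5 in G5P. The lower quartile of the arrays itself was 4.55 and 4.56 in G5 and 4.16 and 4.19 in G5P, which limits the step of Scr. dve had a difference of −0.17 (adjusted p = 0.351, 95% interval −0.47 to 0.14) with overlapping arrays. None of the 4 reached 2-fold in that step, where 10.5% of all probe sets were called lower and 26.3% were lower by the p alone.

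Expressed as a share of the log2 difference from UAS-3L G1 seen in G5, 70.8% was already there in G4 for Scr, 63.0% for bi and 64.8% for dve, but 12.4% for tnc. These shares depend on the control. Against UAS-3L G5, Scr had log2 differences of −1.41 in G4 and −1.82 in G5, and bi −1.21 and −1.95. For dve they were −0.68 and −1.17, and for tnc −0.58 and −2.03. The sizes of the step to G4 and the step to G5 were compared for each gene with a contrast in the same model, chosen after the values were seen. For tnc the step to G5 was the larger, by 0.98 on the log2 scale (SE 0.209, limma adjusted p = 0.00618), and 8.8% of all probe sets passed the p in this direction. For Scr, bi and dve the contrast was −0.32, −0.34 and −0.31, with adjusted p-values of 0.515, 0.322 and 0.462. Whether tnc differs from the other 3 genes in this was not tested.

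**Figure D3:**
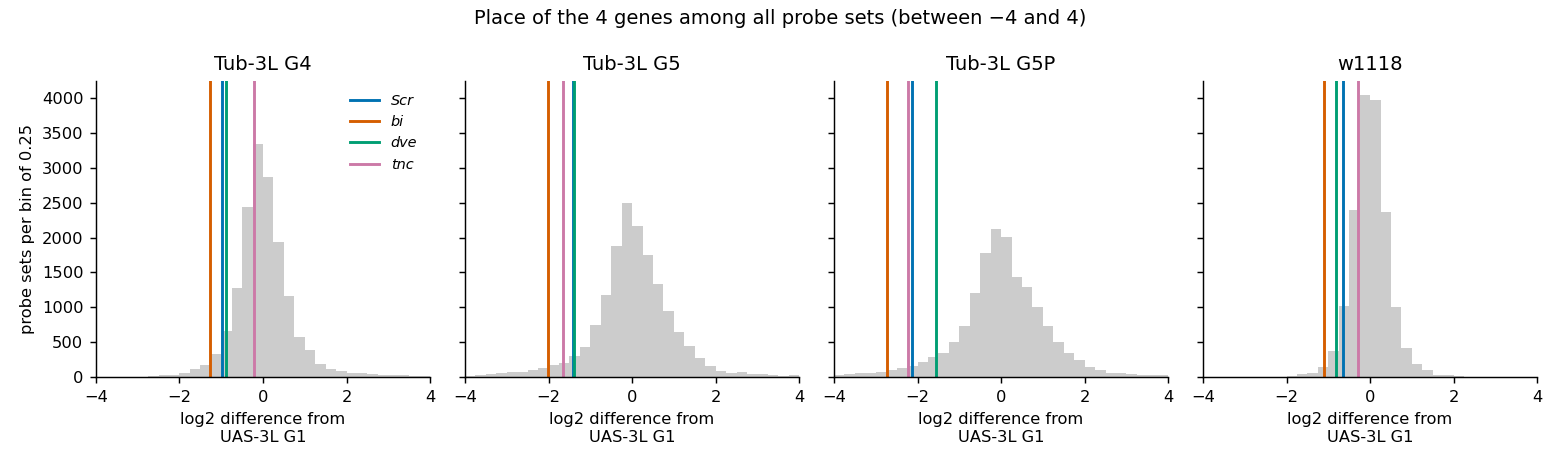
Number of probe sets (vertical axis) by log2 difference from UAS-3L G1 (horizontal axis, bins of 0.25, values beyond 4 in either direction not drawn) in Tub-3L G4, G5, G5P and w1118. Coloured lines mark Scr, bi, dve and tnc. The distribution widens in the late groups, and all 4 lines lie in its lower flank in G5 and G5P, while that of tnc is near the middle in G4.

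In the larvae without the driver the 4 genes stood high again. In UAS-3L* G20* the log2 signals were 6.56 and 6.45 for Scr, 7.92 and 7.84 for bi, 6.50 and 6.61 for dve, and 8.84 and 8.91 for tnc. All were above both Tub-3L G5 arrays, as 39.9% of all probe sets were. By limma all 4 were called higher than in Tub-3L G5, Scr at 3.10-fold, bi at 3.59-fold, dve at 2.63-fold and tnc at 4.41-fold (adjusted p between 1.91e-08 and 3.48e-06), where 10.6% of all probe sets were called higher.

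Against UAS-3L G1, where 0.778% of all probe sets were called lower and 0.882% higher, limma called 0 of the 4 in UAS-3L* G20*, the methods' t-test 0 as well, and only tnc had an unadjusted p under 0.05. The log2 differences were 0.23 for Scr (95% interval −0.12 to 0.58), −0.16 for bi (−0.42 to 0.10), 0.01 for dve (−0.29 to 0.32) and 0.48 for tnc (0.22 to 0.74). That of tnc passed the p (adjusted p = 0.0220) but not the fold. Against UAS-3L G5 the differences lay between −0.19 for Scr and 0.23 for dve, and limma called 0% of all probe sets. At an unadjusted p under 0.05, 904 probe sets and 0 of the 4 genes passed.

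UAS-3L G5 larvae, kept without a driver, had signals of 6.68 and 6.70 for Scr, 7.89 and 8.10 for bi, 6.21 and 6.45 for dve, and 8.70 and 8.83 for tnc. None was called against UAS-3L G1 by limma, where 0.711% of all probe sets were called lower and 1% higher, nor by the methods' t-test, although Scr and tnc had an unadjusted p under 0.05. The log2 differences were 0.42 for Scr (adjusted p = 0.110), −0.05 for bi (adjusted p = 0.844), −0.21 for dve (adjusted p = 0.358) and 0.37 for tnc (adjusted p = 0.0617). With UAS-3L G5 as the control, all 4 genes were again called lower in Tub-3L G5 and G5P, by 2.25-fold for dve to 4.09-fold for tnc in G5, where 10.6% of all probe sets were called lower, and by 2.52-fold for dve to 6.41-fold for bi in G5P, where 14.4% were. The gap between Tub-3L and UAS-3L was also larger in the fifth generation than in the first for all 4 genes, in a contrast by which 12.2% of all probe sets were called lower with Tub-3L G5 and 16.7% with Tub-3L G5P. In G4, 2 of the 4 were called against UAS-3L G5, Scr at 2.66-fold lower and bi at 2.32-fold lower, where 5.6% of all probe sets were called lower. By limma dve (log2 difference −0.68, adjusted p = 0.00175) and tnc (−0.58, adjusted p = 0.00197) passed the p there but not the fold. None of the 4 was called in Tub-3L G1 or G2 against UAS-3L G5. Scr passed the p downwards in G1 (−0.51, adjusted p = 0.0422) and G2 (−0.68, adjusted p = 0.0067), and tnc in G1 (−0.54, adjusted p = 0.00886). Over all probe sets the p was passed in either direction by 7345 in G4, 3111 in G1 and 5081 in G2.

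The w1118 strain stood apart from the transgenic larvae without a driver. Its log2 signals were 5.62 and 5.61 for Scr, 6.95 and 6.92 for bi, 5.72 and 5.73 for dve, and 8.06 and 8.17 for tnc. For each gene both arrays lay below both UAS-3L G1 arrays, which was so for 30.4% of all probe sets. By limma bi was called at 2.15-fold lower (log2 difference −1.11, adjusted p = 5.01e-05), where 1.85% of all probe sets were called lower. Scr fell by 0.66 (adjusted p = 0.00886) and dve by 0.82 (adjusted p = 0.00109) without reaching 2-fold, where 14.5% of all probe sets were lower by the p alone, and the difference of −0.28 for tnc did not pass (adjusted p = 0.105). The w1118 larvae carried neither transgene nor driver.

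With w1118 as the control, a choice made after seeing the data, the early groups looked different. Against it, 0 of the 4 genes were called in Tub-3L G4 (limma; 0 at an unadjusted p under 0.05), where 4.81% of all probe sets were called lower. The log2 differences there were −0.33 for Scr (95% interval −0.68 to 0.01), −0.15 for bi (−0.42 to 0.11), −0.08 for dve (−0.38 to 0.23) and 0.08 for tnc (−0.19 to 0.34). In Tub-3L G1, bi was higher than in w1118 by 0.97 (adjusted p = 6.24e-05), dve by 0.70 (adjusted p = 0.00200) and Scr by 0.56 (adjusted p = 0.0153). In G5 only tnc was called against w1118, at 2.60-fold lower (adjusted p = 1.07e-06), where 9.51% of all probe sets were called lower. Scr, bi and dve fell there by 0.74, 0.90 and 0.56 at adjusted p-values of 0.00159, 4.40e-05 and 0.00430, and 9415 of all probe sets passed the p in either direction. In G5P, Scr at 2.77-fold, bi at 3.08-fold and tnc at 3.88-fold were called lower than in w1118, where 13.6% of all probe sets were. dve fell there by 0.73 (adjusted p = 5.97e-04), and 10132 of all probe sets passed the p in either direction.

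In the order of group means, Tub-3L G5P was the lowest and Tub-3L G5 the next for each of the 4 genes. Tub-3L G5 and G5P overlapped in dve and not in Scr, bi and tnc. For Scr, bi and dve the next places up were taken by Tub-3L G4 and then w1118, whose arrays did not overlap. For tnc, w1118 came next, at a mean of 8.11, followed by Tub-3L G4 at 8.19 and Tub-3L G1 at 8.23, and the arrays of these 3 neighbours overlapped. For bi, the arrays of the 5 highest groups, UAS-3L G1, UAS-3L G5, Tub-3L G1, UAS-3L* G20* and Tub-3L G2, each overlapped their neighbour.

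Across the 9 group means, the Pearson r between members was 0.983 for bi and dve, 0.974 for Scr and bi, and 0.906 for dve and tnc, the lowest of the 6 pairs. These are descriptions of 9 points from the same 18 arrays, and 62.2% (tnc) to 76.2% (dve) of a member's sum of squares lay between the 3 late Tub-3L groups and the rest. Among 1265 named probe sets whose group means spanned at least 1 on the log2 scale, 5.06% to 7.67% had an r above 0.9 with a given member. An r above 0.9 was therefore not limited to the 5 nearest genes of a member, although the median r lay between −0.47 and −0.44.

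The named genes with the courses most like Scr were toy (r = 0.988), a Pax transcription factor of the eye, then rdo, fd96Cb, a forkhead transcription factor, RhoGAP1A and mthl10 (r = 0.980). Those most like bi were zfh2 (r = 0.995), a zinc-finger homeodomain factor of the proximal wing, then RhoGAP1A, dve, Egfr and CG43980. dve was nearest to CG43980 (r = 0.984), then bi, zfh2, side-IV and eyg. tnc was nearest to CG8492 (r = 0.978), pwn, tw, a protein O-mannosyltransferase, sli, the ligand of Robo receptors, and Tet (r = 0.963), and shared none of its 5 with the other members. When the same 1265 probe sets were ranked over the 6 groups without Tub-3L G4, G5 and G5P, a step chosen after seeing the data, 1 of the 5 was again among the nearest 5 for each of Scr and bi, and 0 for dve and tnc. The r of those 5 was then 0.903 to 0.978 with Scr, 0.847 to 0.985 with bi, 0.781 to 0.947 with dve and 0.672 to 0.799 with tnc.

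**Figure D4:**
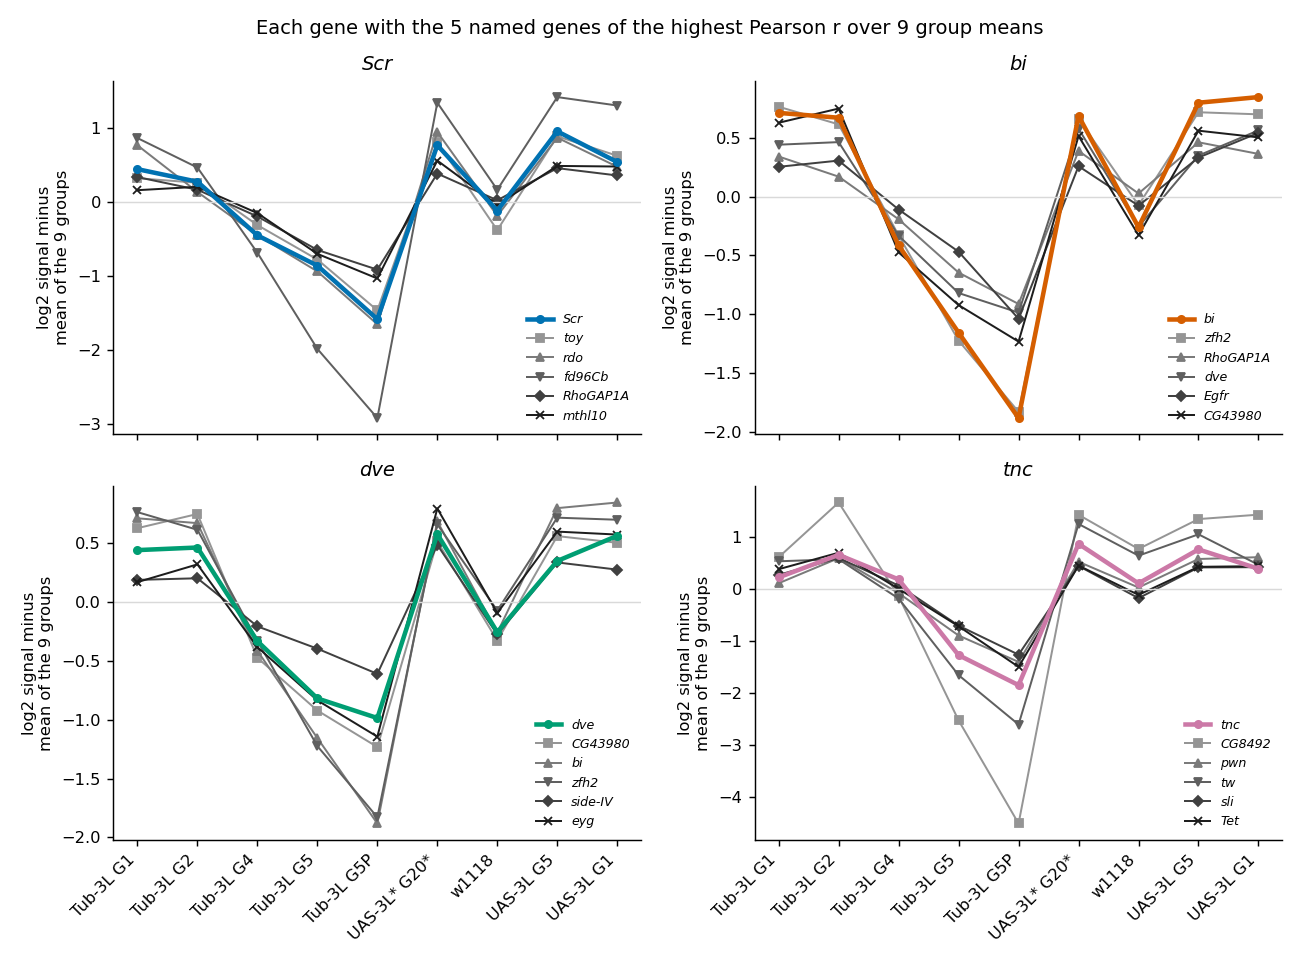
Log2 signal minus the mean of the 9 group means (vertical axis) by group (horizontal axis) for each of Scr, bi, dve and tnc (thick coloured lines) and the 5 named genes with the highest Pearson r to it (grey lines). Lines join group means and do not stand for a time course. In the panel of bi, zfh2 runs along the coloured line, while in the panel of tnc CG8492 falls much further in Tub-3L G5P.

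Beyond the 4, 23 patterning and matrix genes from lists on Hox partners, salivary gland, Dpp, wing, eye and matrix carried a name on the array. Of these, 3 were called lower than UAS-3L G1 in Tub-3L G4, 10 in G5 and 11 in G5P, and 0 were called higher, with 1 higher by the p alone in each group. Their median log2 difference was −0.46 in G4 and −0.88 in both G5 and G5P. The shares called lower over all probe sets, 4.85%, 10.2% and 13.7%, are the ground to read these counts against. None of the 19 listed Wnt genes and none of the 17 listed Hedgehog and Notch genes had a name there.

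Of the 4 named genes that act after Scr in the embryonic salivary gland, 3 were called lower in both G5 and G5P. sage, a bHLH factor of that gland, had log2 differences of −1.53 in G4, −1.90 in G5 and −2.61 in G5P and was called in all 3, but its difference was −0.04 in w1118 (adjusted p = 0.858). PH4alphaSG2, a prolyl hydroxylase of the gland, had −0.83, −1.73 and −1.80 and was called in G5 and G5P. eyg, a Pax factor, had −0.96, −1.41 and −1.72 and was called in the same groups. PH4alphaSG1 was called in none, at −0.18, −0.88 and −0.53, but passed the p by limma in G5 (adjusted p = 0.00126) and G5P (adjusted p = 0.0248).

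In the wing, zfh2 came closest to bi, with log2 differences of −1.03 in G4, −1.92 in G5 and −2.53 in G5P, and was called in each. Egfr, the receptor of the vein-forming EGF signal, had −0.65, −1.01 and −1.58, and was called in G5 and G5P, and its inhibitor kek1 had −0.46, −0.89 and −1.06, and was called in G5P. Of the Dpp pathway, which acts before bi, the 3 named genes other than bi were not called in G4, G5 or G5P. The receptor sax had −0.09, 0.39 and 0.69 in G4, G5 and G5P, and passed the p upwards in G5 (adjusted p = 0.0363) and G5P (adjusted p = 0.00109). The glypican dlp had −0.40, −0.35 and 0.18, and passed it downwards in G4 (adjusted p = 0.0279) and G5 (adjusted p = 0.0380). The Smad anchor Sara had −0.34, −0.20 and 0.02, and passed it downwards in G4 (adjusted p = 0.0192). The T-box genes org-1 and byn, relatives of bi, were called in none of the 3 groups, with differences between −0.88 and 0.51. By limma, byn passed the p downwards in G5 (−0.61, adjusted p = 0.0162) and G5P (−0.88, adjusted p = 0.00140).

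Of 6 named genes of eye and optic lobe, toy and ss were called lower in G5, and toy, ss and Rx in G5P. toy had log2 differences of −0.94 in G4, −1.41 in G5 and −2.09 in G5P, and ss, a bHLH-PAS factor, had −0.76, −1.06 and −1.38. Both were also called lower in w1118, at −1.01 for toy and −1.03 for ss. Of the matrix and adhesion genes beside tnc, Pxn, a peroxidase of the basement membrane, had −1.09, −1.59 and −2.59 in G4, G5 and G5P but 1.09 in w1118, and Ndg, the nidogen, had −0.22, −1.27 and −1.74. Ilk, the integrin-linked kinase, had −0.75, −1.05 and −0.85. Talin, the product of rhea, links integrins to actin, and rhea had 0.61, 0.10 and −0.36 and was not called. By limma, it passed the p upwards in G4 (adjusted p = 2.34e-04) and downwards in G5P (adjusted p = 0.00527).

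**Figure D5:**
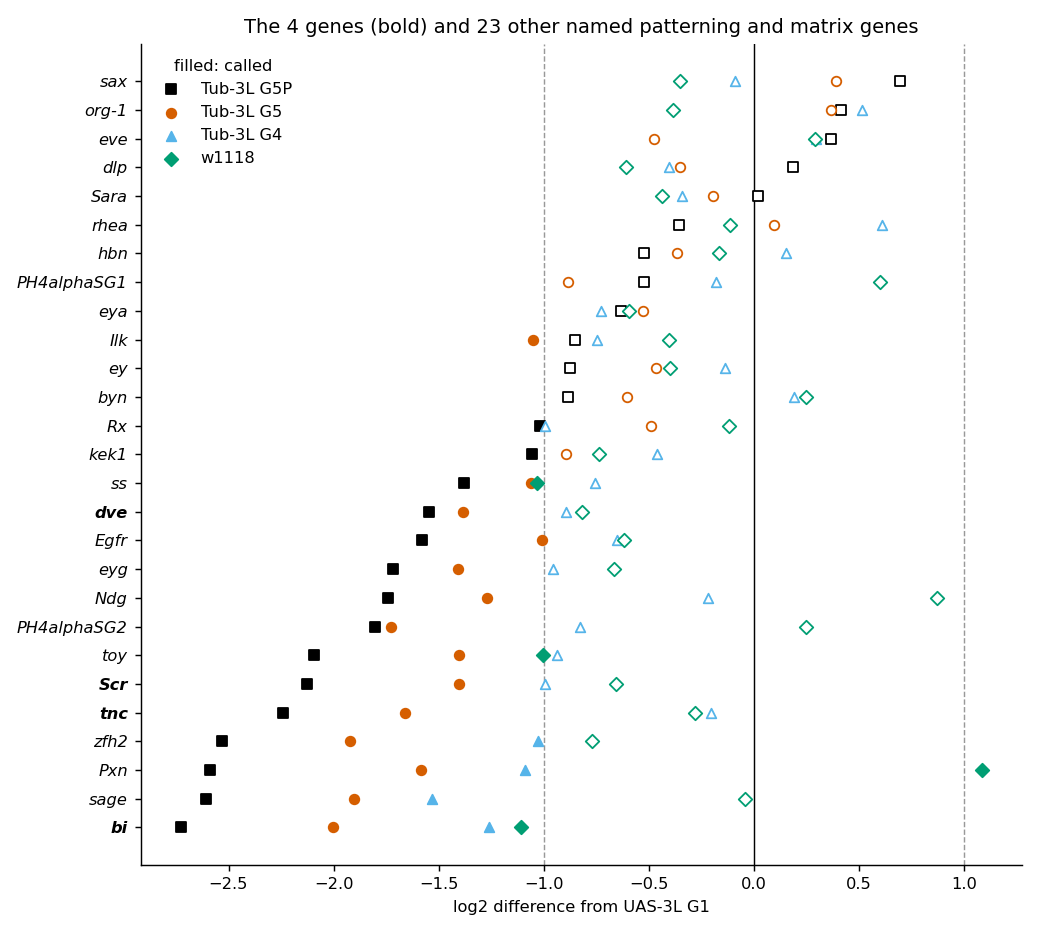
Log2 difference from UAS-3L G1 (horizontal axis) of the 4 genes (bold) and 23 other named patterning and matrix genes (vertical axis, ordered by their value in Tub-3L G5P) in Tub-3L G5P, G5, G4 and w1118. Filled symbols are called and dashed lines mark 2-fold. bi has the lowest value in Tub-3L G5P, at −2.73, and Pxn is the only gene called higher, in w1118.

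In the Tub-3L groups in which the 4 genes fell, summed signals of tissue markers moved as well. Some had moved already in Tub-3L G1 or G2. Of the salivary gland, the tissue that Scr sets up, 7 genes of 11 were named. Those were sage and the glue genes Sgs1, Sgs3, Sgs4, Sgs5, Sgs7 and Sgs8. Their summed linear signal need not follow the amount of gland. It was 4509 to 4652 in Tub-3L G4, 3492 to 3901 in G5 and 118 to 119 in G5P, against 19750 to 21090 in UAS-3L G1. It was 17440 to 17590 in w1118 and 21300 to 21970 in UAS-3L* G20*. In Tub-3L G1 it was 20210 to 20870. In Tub-3L G2 it was 13300 to 13430, and 2 of the 7 genes were called lower there, as 2.24% of all probe sets were. All 7 were called lower in G4, G5 and G5P, where 4.85%, 10.2% and 13.7% of all probe sets were. For the imaginal discs only zfh2 and eya of 14 listed genes were named, and their sum was 302 to 313 in G4, 199 to 209 in G5 and 151 to 157 in G5P, against 594 to 612 in UAS-3L G1, with 356 to 365 in w1118. Of 4 named neural genes of 11, the sum was 842 to 984 in G4, 821 to 869 in G5 and 519 to 535 in G5P, against 980 to 1015 in UAS-3L G1, which the G4 arrays overlapped. Its members went both ways. Rdl, a GABA receptor, was called higher in G4 and G5, and elav, an RNA-binding protein of neurons, was called lower in G5 and G5P.

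Of 4 named midgut genes of 18, where dve also acts, the sum was 1063 to 1114 in Tub-3L G4, 784 to 828 in G5 and 2317 to 2338 in G5P, against 364 to 515 in UAS-3L G1, with 472 to 473 in w1118. In G4, G5 and G5P 2, 1 and 2 of them were called higher and 0 lower. Over all probe sets 7.54%, 13% and 15.2% were called higher in these groups. The midgut sum was already 1418 to 1593 in Tub-3L G1 and 1461 to 1512 in Tub-3L G2, where 0 of the 4 patterning genes were called. The 4 named hemocyte genes of 14, which include Pxn, summed to 417 to 455 in G4, 318 to 333 in G5 and 133 to 148 in G5P, against 931 to 984 in UAS-3L G1. In these groups 3, 4 and 4 of them were called lower, where 4.85%, 10.2% and 13.7% of all probe sets were. In w1118 the hemocyte sum was 2156 to 2226, and 3 of the 4 were called higher, where 2.36% of all probe sets were. bi was called lower in w1118, and its relation to this list was not tested.

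Markers of adult organs and of the germline rose in the same arrays. The ovary list mixes the germline genes otu, orb and zpg with the eggshell genes Vm26Aa, Vm32E and Vm34Ca. Its sum therefore need not come from adult organs alone. The sum of 6 named ovary and germline genes of 22 was 2884 to 3008 in Tub-3L G4, 4793 to 4963 in G5 and 5860 to 6755 in G5P, against 145 to 157 in UAS-3L G1. All 6 were called higher in each, where 7.54% of all probe sets were called higher in G4, 13% in G5 and 15.2% in G5P. The sum of 6 named accessory gland genes of 10 was 1445 to 1491 in G4, 2379 to 2389 in G5 and 706 to 770 in G5P, against 46.2 to 49.9 in UAS-3L G1. That of 3 named flight muscle genes of 7 was 4167 to 4216, 5882 to 6426 and 1025 to 1058 in these groups, against 29.3 to 36.7 in UAS-3L G1. In UAS-3L* G20*, where the 4 genes stood high, the ovary sum was 165 to 172 and the accessory gland sum 48.9 to 49.5. In w1118, where bi was called lower, they were 166 to 189 and 37.0 to 37.4. The sum of 6 named adult eye genes, however, was 562 in w1118 replicate 1 and 191 in replicate 2, against 179 to 180 in UAS-3L G1, and that of flight muscle was 122 and 27.3 in the same arrays. Of the eye genes 1 was called higher in w1118, where 2.36% of all probe sets were. Without w1118 replicate 1 the log2 difference of bi in w1118 was −1.12, and bi was again the 1 gene called. In Tub-3L G4, G5 and G5P the adult eye sum was 2626 to 2694, 4001 to 4283 and 1899 to 1962. The part of these tissue signals in the fall of the 4 genes was not tested.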

How the data were processed

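The deposited values are log2 signals, which the authors normalised with RMA (sketch, core genes) in Affymetrix Expression Console 1.3, and they compared groups in the Transcriptome Analysis Console. RMA sets the arrays to a common distribution, so a shift shared by most genes would be removed. The 16322 probe sets of 18 arrays were used as deposited. A second deposited table holds 9 columns of averages. It was left out because no column of it names its group clearly. Symbols were checked against RefSeq Release 6 plus ISO1 MT, for names only, and 0 changed. No source used here names the genome build of the array annotation, and no sequences or coordinates were used.

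In R 4.3.3, limma 3.58.1 was fitted with a mean for each group over all 18 arrays (lmFit, eBayes), which left 9 residual degrees of freedom and gave a prior of 2.71. The Benjamini-Hochberg method was applied to the p-values of all probe sets in each comparison. All comparisons with UAS-3L G1 share its 2 arrays, so they are not independent. The labels call the arrays biological replicates. No source used here says whether they came from separate crosses, so p-values measure the spread between these pools. Their number, 2 a group, limits the precision. The median signal of an array was 6.17 to 6.39.

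The members and gene lists were chosen with earlier results of these data known. Named are the 4 members, the 5 genes of highest Pearson r with each among named probe sets spanning at least 1, and list genes. Sgs1, Sgs3 and Sgs4 were counted with the salivary gland markers and not among the 23 patterning and matrix genes, and marker lists are given as sums and counts. For symbols with several probe sets the one of highest mean was used. The methods were tested on simulated data. The methods' t-test, other scalings, filters and controls, the replicate number as a block and the omission of single arrays were tried as alternatives.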

Additional observations from a re-analysis of the deposited data

Results flagged for a closer look

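The difference between driver and no driver was larger in the fifth generation than in the first for all 4 genes, by a contrast in the limma model that was chosen after seeing the data. The contrast takes Tub-3L minus UAS-3L in G5 and subtracts the same difference in G1. With Tub-3L G5 it was −1.72 for Scr (adjusted p = 5.28e-05), −1.82 for bi (adjusted p = 3.10e-06), −1.05 for dve (adjusted p = 9.16e-04) and −1.87 for tnc (adjusted p = 2.49e-06) on the log2 scale, where 12.2% of all probe sets were called lower. With the tumor-bearing Tub-3L G5P larvae in place of Tub-3L G5 it was −2.45 for Scr, −2.55 for bi, −1.21 for dve and −2.44 for tnc, where 16.7% of all probe sets were called lower.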

How the results depend on the processing

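The counts of called genes among the 4 were 4 in Tub-3L G5 and G5P under every alternative with a UAS-3L control, except the methods' t-test after Benjamini-Hochberg, which left 3 in G5 (without Scr). In Tub-3L G4 against UAS-3L G1 the count of 1 became 3 with arrays centred on their median or with no fold threshold, 2 with UAS-3L G5 or both UAS-3L groups as the control, and 1 to 2 on leaving out single arrays. With w1118 as the control, chosen after seeing the data, the counts were 0 in G4, 1 in G5 and 3 in G5P, and differences turned positive and passed the p in Tub-3L G1 (Scr 0.56, bi 0.97, dve 0.70) and G2 (bi 0.93, dve 0.72). Of all probe sets 6137 in G1 and 6338 in G2 passed the p in either direction. Scr in G2 (0.39), tnc in G1 (0.12) and tnc in G4 (0.08) also turned positive, without passing it. In G4 against G2 the count of 1 became 0 with arrays scaled to RpLP0 and by the methods' t-test after Benjamini-Hochberg, 4 with no fold threshold, and 0 to 1 on leaving out single arrays. In G5 against G4 it became 0 by that t-test and 3 with no fold threshold. In w1118 against UAS-3L G1 it became 0 by that t-test, 3 with no fold threshold and 2 against UAS-3L G5 in place of UAS-3L G1. With no fold threshold the count of 0 became 1 in UAS-3L* G20* against UAS-3L G1, 1 in G2 against G1 and 3 in G5P against G5. The cause of these changes was not tested.

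With the replicate number as a block, 4 genes were again called in G5 and in G5P and 1 in G4, no call of a member changed, and 3792 probe sets were called in G5 in place of 3790. The numbers do not pair the samples: over 36 pairs of groups, deviations of same-numbered arrays correlated between −0.0643 and 0.0394. The signal of Scr at the lower quartile in Tub-3L G5P limits its difference there.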
